A study of Arabidopsis thaliana with 12 samples.

Results

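The genes described here are 43 nuclear genes of *Arabidopsis thaliana* that encode light-harvesting antenna proteins and subunits of the photosystems. They were taken as a fixed list of TAIR loci, with 6 *LHCA*, 14 *LHCB*, 12 PSI (*PSAD* to *PSAO*) and 11 PSII genes (*PSBO* to *PSBY* and *PSBTN*). All 43 had a probe that passed the signal limit, out of 23936 features tested in all. Transcripts of whole seedlings, 14 days old, were hybridized to one-colour Agilent arrays, with 3 arrays in each of 4 groups: iU1-52 in NaCl (200 mM), Col-0 in NaCl (200 mM), iU1-52 in MS and Col-0 in MS. Col-0 is the wild type. The line iU1-52 is 1 transgenic line in which double-stranded RNA against *GlcNA.UT1* is expressed in the *glcna.ut2-1* T-DNA mutant, so that both genes for the enzyme making UDP-GlcNAc, the sugar donor of N-glycans, GPI anchors and protein O-GlcNAc, are affected. The labels and methods read here do not name the promoter that drives the RNA. By the study's description, seeds of the iU1 lines germinate late at this salt level, and their seedlings then stop developing with small cotyledons that do not green. A difference between the lines in NaCl was thus measured between seedlings at unlike stages, and stage and genotype cannot be told apart in it.

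In the thylakoid membrane of the chloroplast, PSII and PSI each consist of a core around a reaction centre and of an outer antenna of chlorophyll proteins. The antenna of PSII is built from LHCB proteins and that of PSI from LHCA proteins. The reaction centre proteins are encoded in the plastid, whereas the whole antenna and many peripheral subunits are encoded in the nucleus, made in the cytosol and imported. Their genes are known for strong expression in green tissue and for regulation by light and by the state of the plastid. The 20 plastid-encoded photosystem genes were not analysed here.

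In the deposited files, 75.4% to 79.4% of the spots on an array were well above background and 0 spots were saturated. Every one of the 43 genes was well above background on all 12 arrays. Replicates were close in 3 groups, with a median SD over all features of 0.07 to 0.08 on the log2 scale. The spread was wider in iU1-52 in NaCl, with a median SD of 0.22 over all features and 0.29 over the 43 genes. Replicate 1 of that group had a 75th percentile signal of 2502.5, the lowest of the 12 arrays, so values without it are given where they bear on a result. Each replicate number was 1 slide, and each group held the same position on all 3 slides, so that position and group cannot be told apart. *GlcNA.UT2* (AT2G35020), the gene mutated in iU1-52, had a log2 intensity of 11.62 to 11.84 in iU1-52 in MS, against 12.66 to 12.85 in Col-0 in MS (log2 difference −1.003, adjusted p = 0.0069), and of 12.19 to 12.70 in iU1-52 in NaCl, against 12.88 to 12.95 in Col-0 in NaCl (log2 difference −0.53, adjusted p = 0.0056). Where its probe lies relative to the insertion was not examined, which limits this check of the labels. *GlcNA.UT1* was not analysed here. Nothing in the labels states how far the replicates were grown apart beyond their being biological replicates, so p-values measure the spread between these samples. The fit pools this spread over all groups. Intervals and p-values for the MS and Col-0 groups thus also carry the wider spread of iU1-52 in NaCl.

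With salt, nearly the whole set was lower in iU1-52 than in Col-0. Of the 43 genes, 42 were called lower, meaning an adjusted p-value under 0.05 in limma, corrected over all features, and a change of 2-fold or more, and 0 were called higher. Over all features, 5.65% were called lower and 5.35% higher in this comparison. The median log2 difference of the set was −2.33, a level 5.01-fold lower, beside a median of 0.05 over all features. The 3 arrays of iU1-52 in NaCl lay below the 3 of Col-0 in NaCl for 42 genes, as they did for 24.4% of all features. Within each slide the median difference was −2.07, −2.32 and −2.62, and without replicate 1 of iU1-52 in NaCl it was −2.45 with 42 genes still called lower. In whole seedlings, fewer green cells and less of a transcript per green cell cannot be told apart.

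**Figure D1:**
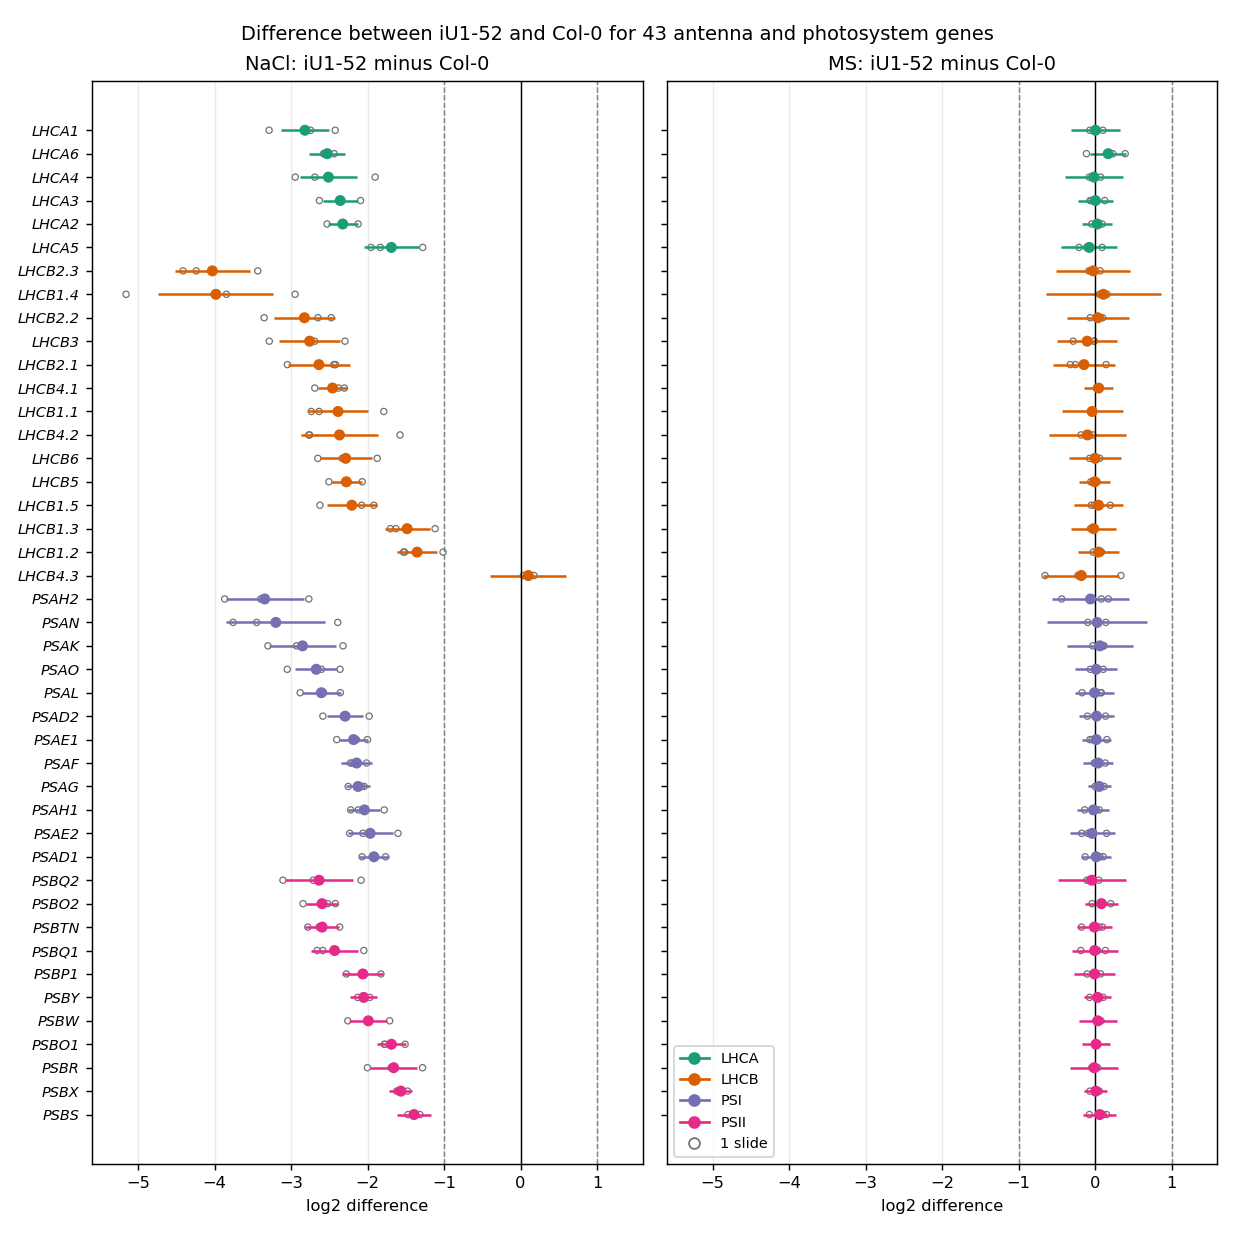
Log2 difference between iU1-52 and Col-0 in NaCl (left) and in MS (right) for the 43 genes, ordered by family and value. Filled points are the fitted differences with 95% confidence intervals, open points the difference on each of 3 slides, and dashed lines mark 2-fold. In NaCl 42 of 43 genes lie left of −1 on every slide and *LHCB4.3* lies near 0, whereas in MS the fitted differences run from −0.18 to 0.17.

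The antenna of PSII holds both ends of the range. LHCB1 and LHCB2 form most of the LHCII trimers, the largest store of chlorophyll in the leaf, and both are phosphorylated in state transitions. By the brightest probes, *LHCB2.3* (AT3G27690) had the largest difference of the set. Its log2 intensity was 6.37, 7.09 and 6.23 in iU1-52 in NaCl, against 10.60, 10.52 and 10.64 in Col-0 in NaCl, a level 16.3-fold lower (log2 difference −4.03 ± 0.22, SE, adjusted p = 6.3e-07). The groups are far apart on every array. *LHCB1.4* (AT2G34430) had 13.87, 13.65 and 12.33 in iU1-52 in NaCl, against 16.82, 17.49 and 17.49 in Col-0 in NaCl, and was 15.8-fold lower (log2 difference −3.98 ± 0.34, adjusted p = 1.0e-05). Replicate 3 of iU1-52 in NaCl is the lowest of these arrays, and the difference on its slide was −5.16, beside −2.95 on slide 1 and −3.85 on slide 2.

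Other LHCII genes differed less. *LHCB1.2* (AT1G29910) had 17.26, 16.80 and 16.73 in iU1-52 in NaCl, against 18.27, 18.32 and 18.26 in Col-0 in NaCl, and was 2.55-fold lower (log2 difference −1.35 ± 0.12, adjusted p = 1.3e-05). This was the smallest of the 42 called differences, and still the groups did not overlap. *LHCB1.3* was 2.80-fold, *LHCB1.5* 4.62-fold and *LHCB1.1* 5.23-fold lower. *LHCB2.1* and *LHCB2.2* were 6.22-fold and 7.09-fold lower, and *LHCB3*, whose protein joins the trimers of LHCII at a middle position in the PSII supercomplex, was 6.77-fold lower. The 5 *LHCB1* genes lie in a row of 3 on chromosome 1 (*LHCB1.2*, *LHCB1.1* and *LHCB1.3*) and a pair on chromosome 2 (*LHCB1.4* and *LHCB1.5*), as the order of genes in the RefSeq table of the TAIR10.1 assembly shows. They are close copies of each other, and signal on their probes may be shared between copies, so differences among them are uncertain.

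The minor antenna proteins CP29, CP26 and CP24 connect the trimers to the PSII core. *LHCB5* (CP26) and *LHCB6* (CP24) were 4.85-fold and 4.88-fold lower in iU1-52 in NaCl than in Col-0 in NaCl. CP29 is encoded by 3 genes, of which *LHCB4.3* went apart from *LHCB4.1* and *LHCB4.2*. *LHCB4.1* (AT5G01530) had 15.21, 15.34 and 14.98 in iU1-52 in NaCl, against 17.59, 17.64 and 17.67 in Col-0 in NaCl, and was 5.49-fold lower (log2 difference −2.46 ± 0.08, adjusted p = 7.6e-08). *LHCB4.2* (AT3G08940) had 12.65, 11.64 and 11.61 in iU1-52 in NaCl, against 14.22, 14.40 and 14.37 in Col-0 in NaCl (log2 difference −2.37 ± 0.23, adjusted p = 2.3e-05). *LHCB4.3* (AT2G40100), a CP29 form known to be induced by strong light and also called LHCB8, was the 1 gene of the set that was not called. It had 12.21, 12.07 and 11.997 in iU1-52 in NaCl, against 12.17, 11.90 and 11.91 in Col-0 in NaCl. The 2 groups overlap, and the log2 difference was 0.10 with a 95% confidence interval of −0.40 to 0.60 (adjusted p = 0.72). In NaCl, each array's log ratio of *LHCB4.3* to *LHCB4.1* was higher in iU1-52 than in Col-0, by 2.56 ± 0.14 (SE). The ratio of *LHCB4.3* to *LHCB4.2* was higher by 2.47 ± 0.32. In both cases the 3 arrays of a group did not overlap with those of the other, which gives an exact two-sided permutation p = 0.10, the smallest that 3 arrays against 3 allow. This separation follows from the differences of the single genes on the same arrays, given above, so the p is no separate support for it.

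**Figure D2:**
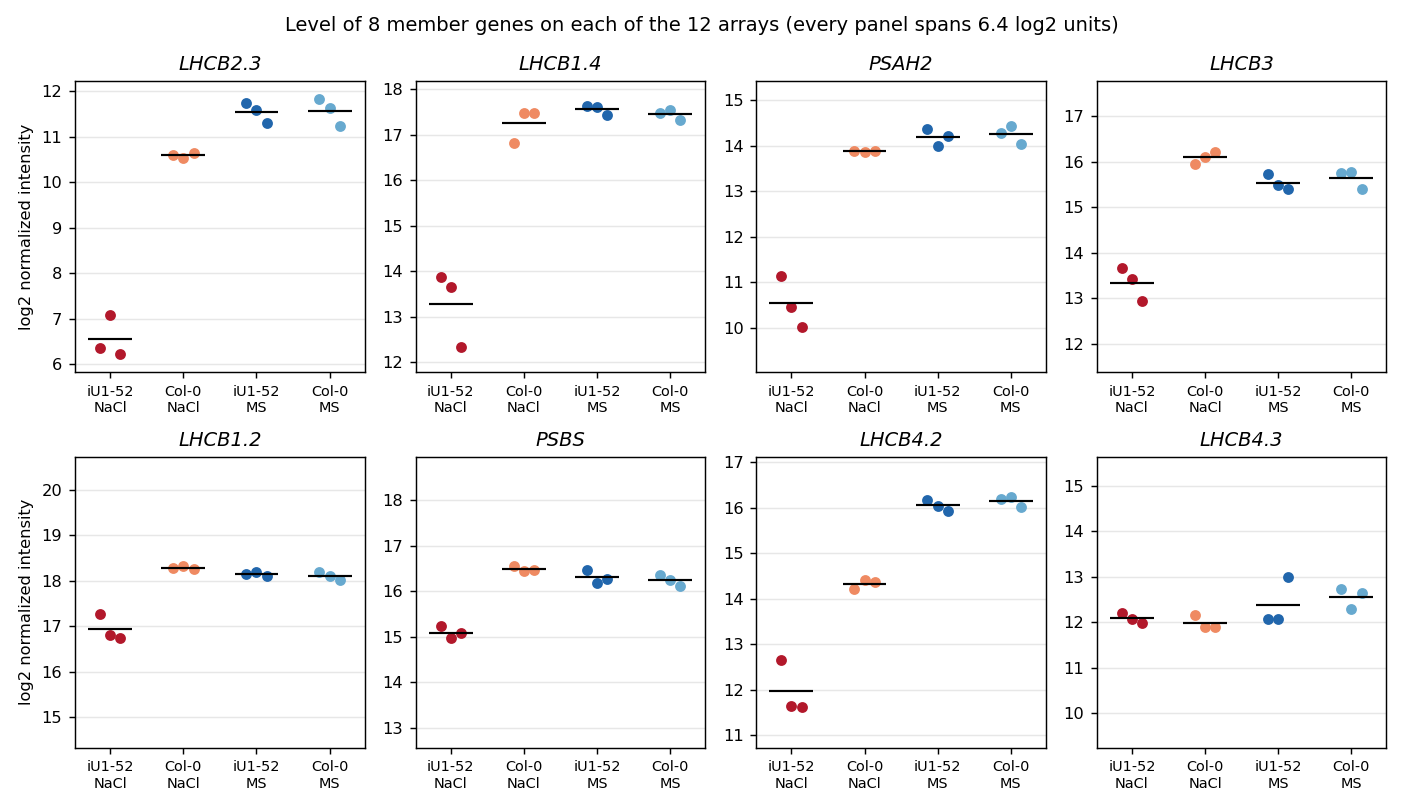
Log2 normalized intensity of 8 of the genes on each array, in the 4 groups iU1-52 NaCl, Col-0 NaCl, iU1-52 MS and Col-0 MS, with points for replicates 1 to 3 from left to right and a line at the mean. In 7 panels the 3 points of iU1-52 in NaCl lie below those of every other group, and in the panel of *LHCB4.3* they lie among them. The axis spans are equal, but levels of different genes come from different probes and are not comparable.

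All 6 *LHCA* genes were called lower, with a median log2 difference of −2.44. *LHCA1* to *LHCA4* encode the 4 proteins of the PSI antenna belt. *LHCA1* was 7.06-fold, *LHCA4* 5.71-fold, *LHCA3* 5.13-fold and *LHCA2* 5.01-fold lower in iU1-52 in NaCl than in Col-0 in NaCl. LHCA5 and LHCA6 are scarce proteins that link PSI to the chloroplast NDH complex. *LHCA6* was 5.77-fold lower, close to the belt genes, and *LHCA5* was 3.23-fold lower, the smallest difference of the family (log2 difference −1.69 ± 0.16, adjusted p = 2.3e-05).

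All 12 PSI genes were called lower, with a median log2 difference of −2.24. *PSAH2* (AT1G52230), one of a pair of genes for the subunit at which LHCII docks on PSI, had 11.13, 10.46 and 10.02 in iU1-52 in NaCl, against 13.90, 13.86 and 13.88 in Col-0 in NaCl. It was 10.2-fold lower (log2 difference −3.35 ± 0.23, adjusted p = 2.6e-06), and the groups are separated by more than 2 log2 units. Its partner *PSAH1* was 4.12-fold lower. The ratio of *PSAH2* to *PSAH1* was lower in salt-grown iU1-52 than in salt-grown Col-0 on every array, by −1.30 ± 0.23 on the log2 scale. *PSAN*, for a lumenal subunit on the plastocyanin side, was 9.19-fold lower, *PSAK*, for a subunit at the edge of the antenna belt, 7.21-fold, *PSAO* 6.37-fold and *PSAL* 6.08-fold. PSAL and PSAO lie with PSAH on the side where LHCII binds. PSAD and PSAE form the stromal ridge at which ferredoxin docks. *PSAD2* was 4.90-fold, *PSAE1* 4.54-fold, *PSAE2* 3.91-fold and *PSAD1* 3.78-fold lower. *PSAF*, for the subunit that binds plastocyanin, was 4.42-fold lower, and *PSAG*, for a subunit that anchors the antenna belt, was 4.36-fold lower.

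All 11 PSII genes were called lower, with a median log2 difference of −2.05. PSBO, PSBP and PSBQ cap the oxygen-evolving cluster on the lumenal side. *PSBQ2* was 6.21-fold, *PSBO2* 6.04-fold, *PSBQ1* 5.39-fold, *PSBP1* 4.18-fold and *PSBO1* 3.22-fold lower in iU1-52 in NaCl than in Col-0 in NaCl. The ratio of *PSBO2* to *PSBO1* was lower in salt-grown iU1-52 than in salt-grown Col-0 by −0.91 ± 0.14 with no overlap of arrays, whereas that of *PSBQ2* to *PSBQ1* differed by −0.20 ± 0.14 with overlap. These ratios are of the brightest probes. The other probes of *PSBO1* gave −1.96 and −2.18 and that of *PSBO2* −2.89, so the size of this ratio depends on the probe. Of the small membrane and lumenal subunits, *PSBTN* was 6.04-fold, *PSBY* 4.14-fold, *PSBW* 3.97-fold, *PSBR* 3.16-fold and *PSBX* 2.96-fold lower. *PSBS* (AT1G44575), for the sensor protein of energy-dependent quenching and thus a photoprotective and not a light-collecting protein, had the smallest difference among the PSII genes. It had 15.23, 14.97 and 15.07 in iU1-52 in NaCl, against 16.55, 16.44 and 16.46 in Col-0 in NaCl, and was 2.63-fold lower (log2 difference −1.39 ± 0.10, adjusted p = 3.2e-06). The arrays within each group agree closely and the groups do not overlap.

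The size of a difference depended on the probe more than its direction did. The value of each gene above is that of its brightest probe. The 43 genes had 127 probes that passed the signal limit, with 2 or more probes for 34 genes, and 125 of the 127 were called lower in iU1-52 in NaCl when each was fitted on its own. The 2 probes not called were the only probe of *LHCB4.3* and a dim probe of *LHCB4.1* at 0.24, whose 4 other probes lay between −2.88 and −2.46. In 24 of the 34 genes the brightest probe had the smallest difference, and in 3 it had the largest. *LHCB1.3* shows this well. Its 9 probes ran from −3.10 to −1.09, its 3 brightest probes lay between −1.66 and −1.09, and the other 6 lay between −3.10 and −2.78. The brightest probe put *LHCB1.2* at −1.35 while its lowest value was −3.01, so the small differences of *LHCB1.2* and *LHCB1.3* hold for their brightest probes only. *LHCB1.1* ran from −4.46 to −2.39, *LHCB2.1* from −2.64 to −1.30, *PSBR* from −2.42 to −1.66 and *PSBO1* from −2.18 to −1.69. Over the 34 genes the median range between probes was 0.43.

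**Figure D3:**
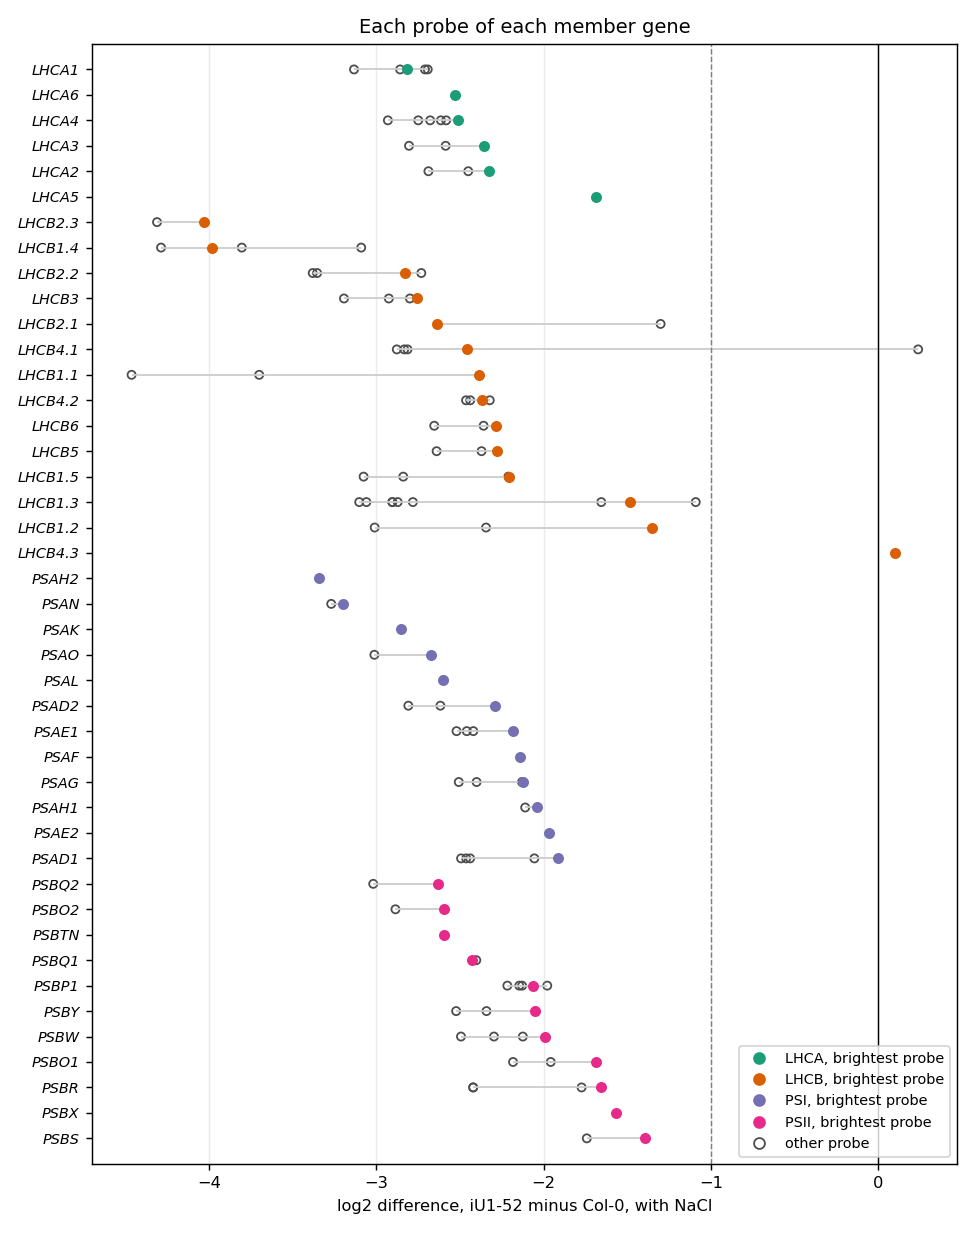
Log2 difference between iU1-52 and Col-0 in NaCl for each of the 127 probes of the 43 genes, with the brightest probe of a gene filled and its other probes open. All but 2 probes lie left of the dashed line at 2-fold, and the widest ranges are those of *LHCB4.1*, *LHCB1.1* and *LHCB1.3*.

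In MS, differences between the lines were not detected. By limma, 0 of the 43 genes were called, 0 had an adjusted p under 0.05 and 0 had an unadjusted p under 0.05. The 2-way test of the methods also called 0, which rests on the 2-fold criterion. Its adjusted p was the lowest of the genotype, salt and interaction terms, so it is no separate test of the lines in MS. Over all features, 0.326% were called in this comparison and 0.526% passed the adjusted p alone. The share of all features with an unadjusted p under 0.05 is not given here. The median log2 difference of the set was 0.00, the single differences ran from −0.18 (*LHCB4.3*) to 0.17 (*LHCA6*), and the 95% confidence intervals of the 43 genes all lay between −0.68 and 0.86. The limit of 0.86 was that of *LHCB1.4*. Its SD was 0.11 in iU1-52 in MS and 0.12 in Col-0 in MS, but 0.83 in iU1-52 in NaCl. The genes with the largest differences in NaCl lay close together in MS. *LHCB2.3* had 11.74, 11.59 and 11.31 in iU1-52 in MS, against 11.82, 11.64 and 11.25 in Col-0 in MS. *LHCB1.4* had 17.64, 17.61 and 17.44 in iU1-52 in MS, against 17.48, 17.55 and 17.32 in Col-0 in MS. *PSAH2* had 14.37, 14.00 and 14.22 in iU1-52 in MS, against 14.29, 14.44 and 14.05 in Col-0 in MS. The groups overlap in each of these cases. They also overlap in *LHCB4.3*, where replicate 3 of iU1-52 in MS, at 12.99, stood above the 12.07 and 12.08 of the other two arrays, against 12.73, 12.30 and 12.65 in Col-0 in MS.

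The difference between NaCl and MS was then taken within each line. The 2 line comparisons and the 2 salt comparisons draw on the same 12 arrays, so they are not independent of each other. In iU1-52, 42 genes were called lower in NaCl than in MS and 0 higher, beside 14.3% and 13.1% of all features. The median log2 difference was −2.81, a level 7.00-fold lower. In Col-0, 4 genes were called lower and 0 higher, beside 12.2% and 11.0% of all features, and the median log2 difference was −0.36. By the adjusted p alone, without the 2-fold criterion, 22 genes were lower in Col-0, 4 were higher and 17 did not pass, where 35.2% of all features were lower and 33.9% higher. These counts are of the brightest probes, which had the smallest difference in 27 of the 34 genes with 2 or more probes. Of the 127 probes, each fitted on its own, 17 were called lower in Col-0 and 1 higher. Some genes that did not pass had another probe that did, such as *PSBO1* (−0.37 and −0.49) and *LHCB2.2* (0.47).

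In iU1-52, the differences with salt ran from −4.99 to −0.29. *LHCB2.3* was 31.7-fold, *LHCB1.4* 19.4-fold, *LHCA6* 18.4-fold, *LHCB4.2* 17.0-fold, *PSAH2* 12.7-fold, *PSAD2* 11.7-fold and *PSBQ2* 11.6-fold lower in NaCl than in MS. As above, the level of *LHCB2.3* in iU1-52 in NaCl lies near the signal limit, so the size of its difference is uncertain. At the other end, *LHCB1.2* and *PSBS* were both 2.32-fold lower. *LHCB4.3* was again the 1 gene not called (log2 difference −0.29, 95% confidence interval −0.78 to 0.21, adjusted p = 0.28). Of the 127 probes, each fitted on its own, 124 were called lower and 1 higher, the dim probe of *LHCB4.1* at 1.19.

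In Col-0 the genes went in both directions, and 4 were called. *LHCB4.2* had 14.22, 14.40 and 14.37 in Col-0 in NaCl, against 16.20, 16.24 and 16.02 in Col-0 in MS, and was 3.53-fold lower (log2 difference −1.82 ± 0.23, adjusted p = 4.8e-05). *LHCB4.1* differed by −0.14 ± 0.08 (adjusted p = 0.15), with 17.59, 17.64 and 17.67 in Col-0 in NaCl, against 17.80, 17.78 and 17.73 in Col-0 in MS. By the brightest probes, the ratio of *LHCB4.2* to *LHCB4.1* was thus lower in NaCl than in MS by −1.68 ± 0.06, with no overlap of arrays. The 4 probes of *LHCB4.2* gave −1.82 to −1.68. Other probes of *LHCB4.1* were lower with salt, at −0.48, −0.43 and −0.43, each with an adjusted p under 0.05 in limma. Its dim probe was higher, at 0.69 (adjusted p = 0.021), so the size of this ratio depends on the probe. *LHCA6* had 12.80, 12.77 and 12.79 in Col-0 in NaCl, against 14.29, 14.44 and 14.14 in Col-0 in MS, and was 2.84-fold lower, whereas *LHCA2* was 1.53-fold lower. *PSAH1* was 2.16-fold lower (log2 difference −1.11 ± 0.09, adjusted p = 2.8e-06), and *PSAH2* differed by −0.38 ± 0.23 (adjusted p = 0.16). The ratio of *PSAH2* to *PSAH1* was higher in NaCl than in MS by 0.73 ± 0.07, with no overlap of arrays. *PSAD2* was 2.35-fold lower, and *PSAD1*, at 1.94-fold, fell short of 2-fold with its brightest probe. Its other 4 probes were called lower, at −1.21 to −1.09, so the difference in call between these 2 genes rests on 1 probe.

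Among the genes that passed the adjusted p in Col-0, 4 were higher in NaCl than in MS. *LHCB3* had 15.95, 16.11 and 16.22 in Col-0 in NaCl, against 15.74, 15.77 and 15.40 in Col-0 in MS (log2 difference 0.45 ± 0.18, adjusted p = 0.041), and 4 of its 4 probes were higher. *LHCB1.1* had 18.29, 18.43 and 18.38 in Col-0 in NaCl, against 17.86, 17.80 and 17.71 in Col-0 in MS (log2 difference 0.58 ± 0.18, adjusted p = 0.015). The groups of both genes do not overlap. Another probe of *LHCB1.1* gave 4.47, a difference the brightest probe does not show, and in iU1-52 the 3 probes of this gene ran from −2.65 to 0.28 between NaCl and MS. *PSBS* was higher by 0.24 ± 0.10 with its brightest probe (adjusted p = 0.049), whereas its other probe, at 0.35, did not pass (adjusted p = 0.093). *LHCB2.1* was higher by 0.59 ± 0.18 with its brightest probe (adjusted p = 0.014), but its other probe gave −1.02, so that its direction depends on the probe. *LHCB4.3* was lower in NaCl than in MS in Col-0 by −0.57 ± 0.22 (adjusted p = 0.042).

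**Figure D4:**
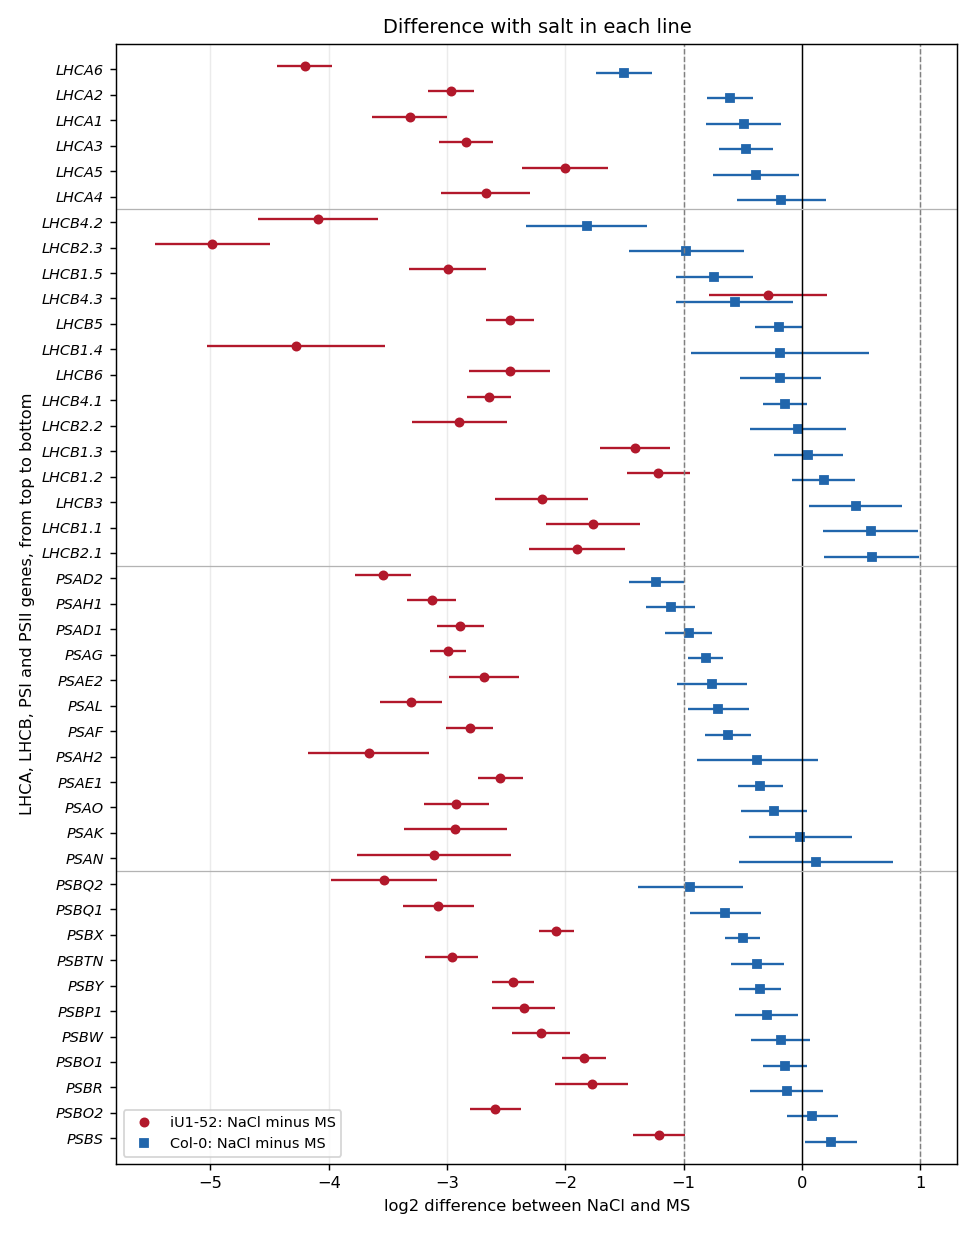
Log2 difference between NaCl and MS in iU1-52 (circles) and in Col-0 (squares) for the 43 genes, with 95% confidence intervals and dashed lines at 2-fold. The intervals of the 2 lines do not overlap for any gene but *LHCB4.3*, and those of Col-0 lie on both sides of 0.

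The interaction tests whether the difference with salt was unequal in the 2 lines. It was called for 42 of the 43 genes, all with a larger fall in iU1-52 than in Col-0, beside 5.24% of all features in that direction and 4.26% in the other. The median was −2.31, and *LHCB1.4* had the largest value at −4.09 ± 0.48 (adjusted p = 0.00022). *LHCB4.3* had 0.28 with a 95% confidence interval of −0.42 to 0.98 (adjusted p = 0.52). In all, 13 pairs of related genes were compared in the 2 line and 2 salt comparisons. The ratio of a pair differed with no overlap of arrays in 33 of these 52 comparisons. Of the 13 pairs these were 11 between the lines in NaCl, 1 in MS, 10 with salt in Col-0 and 11 with salt in iU1-52. Each of the 33 had the exact permutation p = 0.10 that the design allows at best (0.158 after Benjamini-Hochberg adjustment over the 52). The comparisons share genes and arrays, so they are not independent. No count over other gene pairs is given here, so this number has no background to be set against.

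Other genes of the pathway were counted over lists set up with the earlier results of these data known. Of 21 genes for the insertion and assembly of antenna and photosystem proteins, 8 were called lower and 0 higher in iU1-52 against Col-0 in NaCl, with a median log2 difference of −0.84, and by the adjusted p alone 18 were lower and 2 higher. By the same rule, 23.2% of all features were lower and 27.8% higher, which applies to each list below as well. *PPL1*, for a PsbP-like protein that acts in PSII repair, was lower by −2.22 ± 0.07 (adjusted p = 7.6e-08). *cpSRP43*, for the chaperone of the signal recognition particle that carries LHC proteins to the thylakoid, was lower by −1.82 ± 0.12 (adjusted p = 2.4e-06). *HCF244* and *PPD1*, which act in the making of the D1 protein of PSII and in PSI assembly, were lower by −1.61 and −1.48. The translocase gene *ALB3*, which inserts LHC proteins, differed by −0.14 (adjusted p = 0.32).

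The LHC-like proteins are relatives of the antenna with fewer membrane spans, some of which appear in stress. Of 9 such genes 4 were called lower in salt-grown iU1-52 than in salt-grown Col-0. By the adjusted p alone 5 were lower and 1 higher. The called genes were *OHP1* (−1.90), *LIL3.1* (−1.48), *SEP1* (−1.17) and *OHP2* (−1.11). The early light-induced genes stood at the other side. *ELIP1* had 14.90, 14.46 and 15.05 in iU1-52 in NaCl, against 12.90, 13.41 and 13.34 in Col-0 in NaCl, with no overlap, but its p missed the threshold (log2 difference 1.59 ± 0.61, adjusted p = 0.050). *ELIP2* was higher by 0.76 ± 0.12, under 2-fold (adjusted p = 0.00053). With salt, *ELIP2* was higher by 4.77 in iU1-52 and by 3.95 in Col-0, and *ELIP1* by 4.95 in iU1-52 and by 3.02 in Col-0, and all 4 of these were called.

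Among 9 genes for the phosphorylation and breakdown of the antenna, 0 were called lower in iU1-52 in NaCl relative to Col-0 and 2 higher, and by the adjusted p alone 5 were lower and 2 higher. The 2 were *SGR2* (1.61 ± 0.24, adjusted p = 0.00039) and *SGR1* (1.43 ± 0.17, adjusted p = 9.6e-05). SGR1 takes the magnesium out of chlorophyll and recruits the enzymes of its breakdown, and SGR2 is its relative. *STN7*, for the kinase of state transitions, differed by −0.45. Among 16 regulators of photosynthesis genes, 2 were called lower in salt-grown iU1-52 than in salt-grown Col-0. By the adjusted p alone 9 were lower and 2 higher. The called genes were *GUN4* (−1.47), whose protein promotes magnesium chelatase, and *SIG1* (−1.004), a sigma factor of the plastid RNA polymerase. *GLK1* and *GLK2*, the transcription factors known to drive antenna genes, were lower by −0.66 and −0.60, under 2-fold (adjusted p = 0.040 and 0.0032). In MS, limma called 0 genes of these 4 lists, and 1 of the 16 regulators and 0 of the others had an unadjusted p under 0.05. As above, no share of all features is given for this unadjusted limit.

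**Figure D5:**
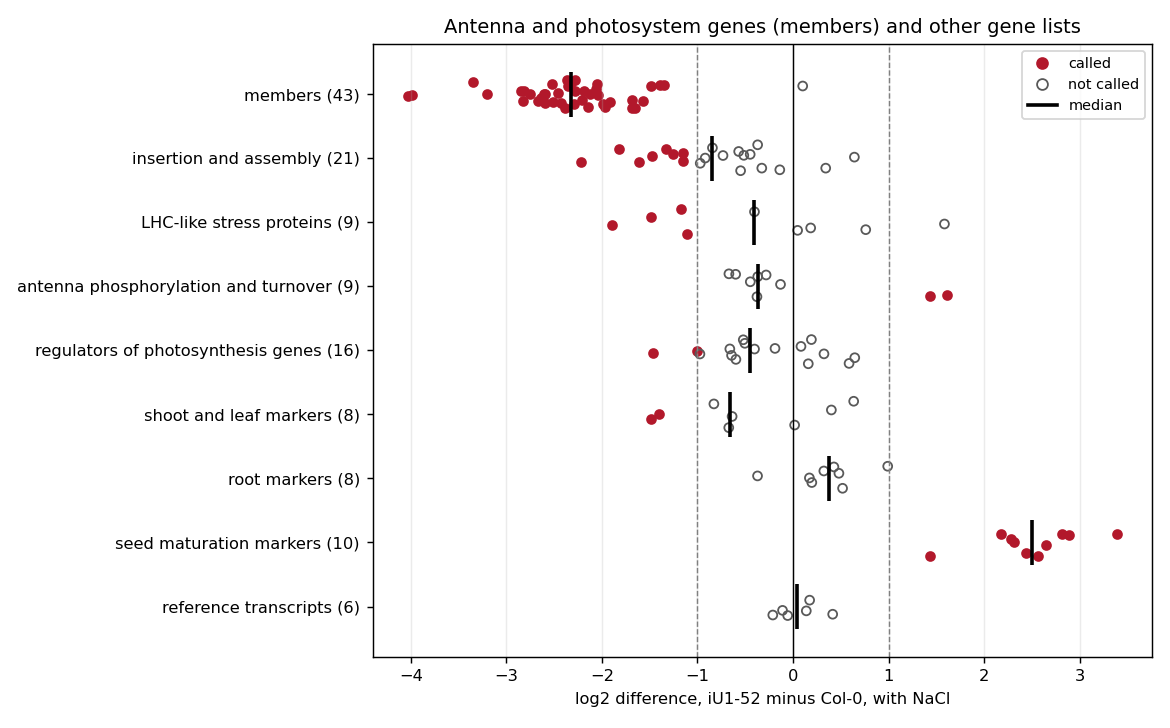
Log2 difference between iU1-52 and Col-0 in NaCl for the 43 genes and for 8 other gene lists, 1 point a gene, filled where called, with a bar at the median of each list and the number of genes in brackets. The 43 genes lie furthest to the left and the seed maturation markers furthest to the right, and 0 of the root markers and reference transcripts were called.

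In NaCl, all 10 seed maturation markers were called higher in iU1-52, with log2 differences from Col-0 of 1.43 to 3.39. Their summed normalized intensity was 1111895 to 1300802 in iU1-52 in NaCl, against 170757 to 394106 in Col-0 in NaCl, and it was 102 to 129 in iU1-52 in MS, against 114 to 127 in Col-0 in MS. In NaCl all 10 passed the background limit of the scanner software on the 6 arrays, and in MS 1 or 2 did. Of 8 shoot and leaf markers 2 were called lower in salt-grown iU1-52 than in salt-grown Col-0, *MUTE* (−1.49) and *FAMA* (−1.41), both for factors of the stomatal lineage. By the adjusted p alone 5 of the 8 were lower and 2 were higher, *KAN1* (0.63) and *YAB1* (0.40), and the summed intensity of the list was 6812 to 8859 in iU1-52 in NaCl, against 8846 to 9528 in Col-0 in NaCl. Of 8 root markers 0 were called, but 4 were higher by the adjusted p alone at under 2-fold, and their sum was 15468 to 16719 in iU1-52 in NaCl, against 12174 to 12745 in Col-0 in NaCl. Of 6 reference transcripts 0 were called and 1 was higher by the adjusted p alone (*SAND*, 0.42), with differences of −0.21 to 0.42. The part of these tissue and stage differences in the values of the 43 genes was not tested.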

How the data were processed

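Processed array files of 12 seedling samples were used. The authors deposited Cy3 intensities of single spots from Feature Extraction 10.7.1.1, on a linear scale, background-subtracted within each array and not normalized between arrays. By the methods, labelled products were pooled before hybridization, without saying of what. The methods name a signal limit of 100, quantile normalization and a 2-way test with a fold criterion. Here control spots and outlier spots (2 to 10 an array) were left out, and spots of a probe were averaged. Probes under 100 on every array were removed (31498 of 43603 kept), and intensities were quantile normalized and log2 transformed. Probes were assigned to loci by the systematic names in the files, and the brightest probe stood for its locus, leaving 23936 features. The 4 group means were fitted on all 12 arrays (limma 3.58.1, R 4.3.3), with p-values adjusted by Benjamini-Hochberg over all features. The procedure was tested on simulated data. The number of arrays limits the precision.

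The 43 members and the other gene lists were chosen with earlier results of these data known. All 43 may be named. Values on every array were given for the 3 largest and 3 smallest NaCl line differences, for genes called unlike their family and for paralogs that went apart, and for each other list up to 4 called genes with the largest differences. *ALB3*, *ELIP1*, *ELIP2*, *STN7*, *GLK1*, *GLK2*, *SAND*, *KAN1* and *YAB1* and array values of a few more members were added after their values were seen. Alternatives were 75th percentile scaling, normexp background correction (offset 50, median pixels), other filters on dim probes, the replicate number (1 slide each) as a block, array weights, fewer groups in the fit, the mean of all probes, each array left out, the adjusted p or the fold alone, and the 2-way test. Scaling to 6 reference transcripts and single probes were added after seeing the data. Group deviations of arrays with the same replicate number correlated at −0.05 to 0.21 over 18 pairs of arrays.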

Additional observations from a re-analysis of the deposited data

Results flagged for a closer look

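The difference with salt was unlike in the 2 lines for 42 of the 43 genes by the interaction test (limma, adjusted over all features), all 42 with the larger fall in iU1-52. For 4 genes the 2 lines went opposite ways past the adjusted p, lower with salt in iU1-52 and higher with salt in Col-0. Their interaction values on the log2 scale were −2.65 for *LHCB3*, −2.49 for *LHCB2.1*, −2.35 for *LHCB1.1* and −1.45 for *PSBS*. In Col-0 the other probe of *LHCB2.1* was lower with salt (−1.02), and the other probe of *PSBS* did not pass (0.35, adjusted p = 0.093).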

How the results depend on the processing

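With 3 arrays a group and whole seedlings as the sample, small differences and differences between close paralogs are the least certain values, and probe sequences were not used here. In NaCl 42 genes were called lower under every alternative run, each array left out included, and so were 42 with salt in iU1-52 and 42 in the interaction, while 0 were called in MS. In the 2-way test a gene had the same adjusted p in every comparison, so only the fold set its calls apart. The replicate block left these counts at 42, 42, 42 and 0 and left 4 in Col-0, and it changed no call of a gene. Arrays with the same replicate number share a slide. The labels do not say what else they share, and their correlations, given above, were not all over 0.1. Leaving out single arrays gave medians of −2.45 to −2.22 for the NaCl line difference, −0.04 to 0.04 in MS, −0.40 to −0.32 for salt in Col-0, −2.88 to −2.66 for salt in iU1-52 and −2.45 to −2.19 for the interaction.

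The values that moved were mainly those of salt in Col-0. By the adjusted p alone 22 genes were lower and 4 higher in place of 4 and 0. With the mean of all probes 1 gene was called higher, *LHCB1.1*, by the construction of that mean, which takes in its probe at 4.47. Without 1 array the count lower was 4 to 6, with *LHCB2.3* (−1.01) and *PSAD1* (−1.02) added without replicate 3 of Col-0 in NaCl and *LHCB2.3* (−1.14) without replicate 3 of Col-0 in MS. *PSAH1* missed 2-fold (−0.92) under 75th percentile scaling, where the median was −0.18, and the cause was not tested. With scaling to the reference transcripts the median for salt in iU1-52 was −3.05. This scaling moved the median of all features to −0.21 in Col-0 and −0.20 in iU1-52. It lowered the share of higher calls among all calls to 34.9% in Col-0 and 36.2% in iU1-52, where it had been 47.5% and 47.7%. In the main fit the 6 reference transcripts themselves differed with salt. By the adjusted p alone 4 were higher and 1 lower in iU1-52 (median 0.26), beside 35.4% and 32.5% of all features. In Col-0, 2 were higher and 0 lower, beside 33.9% and 35.2% of all features.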
